A study of Arabidopsis thaliana with 18 samples.

Results

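Sites bound by both BRIP1 and BRIP2 were examined where they fell between a pair of neighbouring genes that are transcribed away from each other. A site was a peak of BRIP2-GFP in *brm-1*, replicate 1, on chromosomes 1 to 5 that overlapped a peak of each of the 3 other peak lists by at least 1 bp. It was kept when its summit, the base of highest read pileup, lay between the transcription start sites (TSSs) of adjacent head-to-head protein-coding genes no more than 1500 bp apart. Of 7877 peaks in that list, 3015 were shared by all 4 lists, and 142 of these (4.71%) met the rule, each in an interval of its own. Chromosomes 1 to 5 held 43, 19, 27, 24 and 29 of them.

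BRIP1 and BRIP2 are accessory subunits of a plant SWI/SNF chromatin remodelling complex, and their binding was mapped by ChIP-seq of GFP fusions in *Arabidopsis thaliana*. The groups were BRIP1-GFP in *brm-1* and BRIP2-GFP in *brm-1*, from 14-day-old seedlings, with 2 biological replicates of each and immunoprecipitation with the anti-GFP antibody ab290. Both groups carry *brm-1*, a loss-of-function allele of *BRAHMA* (*BRM*), the ATPase of the complex, so none of the values measures what BRM does. The labels name no promoter for either fusion, whole seedlings mix many cell types, and the sample titles name no anti-GFP control from untagged plants. The antibody label of BRIP1-GFP replicate 2 reads "none", against its title, which names it an immunoprecipitation.

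SWI/SNF complexes use ATP to slide or evict nucleosomes, and in plants they are found at many promoters. Genes in a divergent pair share the stretch of DNA between their start sites, which can act as a bidirectional promoter, so that a protein bound there cannot be assigned to one gene of the pair by its position alone. Such pairs are common in the compact *Arabidopsis* genome.

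The intervals ran from 200 to 1497 bp between TSSs, with a median of 955.5 bp. Only 6 were 300 bp or shorter, and the 5 of these with the strongest binding are printed whole, since there the shared regulatory DNA is short enough to be read in one piece. All are TAIR10 coordinates with letters from the RefSeq copy of the genome (TAIR10.1), on the plus strand and 5′ to 3′, from the base after the left TSS to the base before the right TSS. Capitals mark matches to a fixed set of 13 promoter motifs on either strand, among them the G-box (CACGTG), the site II element (GGCCCA), the TATA box (TATAAA), the W-box (TTGACC or TTGACT), the auxin response element (TGTCTC) and the heat shock element (GAANNTTC).
AT3G01820 and AT3G01830 (chr3:295725-296023): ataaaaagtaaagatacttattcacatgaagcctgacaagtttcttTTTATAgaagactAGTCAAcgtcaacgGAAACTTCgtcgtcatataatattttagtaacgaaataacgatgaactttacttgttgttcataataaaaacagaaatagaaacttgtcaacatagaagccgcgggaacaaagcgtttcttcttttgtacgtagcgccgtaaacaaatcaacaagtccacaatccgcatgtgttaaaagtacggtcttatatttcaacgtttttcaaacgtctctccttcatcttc
AT4G09965 and AT4G09970 (chr4:6245687-6245915): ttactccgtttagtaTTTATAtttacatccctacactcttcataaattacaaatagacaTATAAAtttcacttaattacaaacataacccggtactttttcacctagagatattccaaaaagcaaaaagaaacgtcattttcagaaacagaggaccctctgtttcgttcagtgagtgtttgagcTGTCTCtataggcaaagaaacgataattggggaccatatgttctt
TBL6 (AT3G62390) and AT3G62400 (chr3:23089358-23089595): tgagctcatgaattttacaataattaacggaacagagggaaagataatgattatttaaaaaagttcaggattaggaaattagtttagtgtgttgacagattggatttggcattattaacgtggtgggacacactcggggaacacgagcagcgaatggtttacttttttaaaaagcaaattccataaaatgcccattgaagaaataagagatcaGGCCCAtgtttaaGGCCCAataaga
AT1G14270 and PKS2 (AT1G14280) (chr1:4877257-4877505): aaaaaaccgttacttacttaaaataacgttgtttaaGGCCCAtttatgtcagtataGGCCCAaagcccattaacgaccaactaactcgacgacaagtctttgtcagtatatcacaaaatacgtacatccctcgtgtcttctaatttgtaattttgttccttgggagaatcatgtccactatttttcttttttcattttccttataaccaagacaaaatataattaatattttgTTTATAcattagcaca
AT1G15165 and AT1G15170 (chr1:5220114-5220402): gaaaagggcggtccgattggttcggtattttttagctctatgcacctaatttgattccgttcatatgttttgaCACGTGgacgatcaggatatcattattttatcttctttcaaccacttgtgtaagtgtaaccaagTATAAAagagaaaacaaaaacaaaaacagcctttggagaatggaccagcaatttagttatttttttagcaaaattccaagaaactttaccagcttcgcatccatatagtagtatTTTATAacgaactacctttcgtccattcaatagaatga

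The interval between AT1G15165, a zinc finger gene, and AT1G15170, a MATE efflux gene, held a G-box. Those beside *PKS2*, which encodes a phytochrome kinase substrate, and beside *TBL6* each held a pair of site II elements. The fold, which is the deposited ratio of pileup to control at the summit, was 2.25 and 2.77 in BRIP1 and 3.39 and 3.42 in BRIP2 at AT3G01820 and AT3G01830, an EF-hand calcium-binding gene.

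At AT4G09965 and AT4G09970, for which no function is annotated, the folds were 2.62 and 2.77 in BRIP1 and 3.19 and 3.01 in BRIP2. At *TBL6* they were 2.46 and 2.54 in BRIP1 and 2.87 and 2.76 in BRIP2, and at *PKS2* 2.12 and 2.40 in BRIP1 and 3.0 and 2.72 in BRIP2. Both BRIP2 folds were above both BRIP1 folds at these 4 sites as deposited, an order found at 103 of the 142 sites between divergent pairs (72.5%) and at 1819 of all 3015 shared sites (60.3%). The site with the G-box, at AT1G15165 and AT1G15170, was the exception, with 2.00 and 2.59 in BRIP1 and 2.31 and 2.52 in BRIP2. At all 5 the 4 summits lay within 43 to 189 bp of each other.

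The letters around some of the strongest summits are printed as well. The BRIP2 replicate 1 summit is shown with 50 bp on each side for the top-ranked pair and for 3 others of the best 12 that carried a motif, chosen after their motifs were seen. Capitals again mark motif matches, here also the TCP class II site (GTGGNCCC), which in plants is bound by TCP transcription factors.
AT4G38840 and SAUR15 (AT4G38850) (chr4:18125774-18125874): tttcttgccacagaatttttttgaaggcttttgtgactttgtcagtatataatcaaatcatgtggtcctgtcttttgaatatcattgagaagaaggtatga
AT1G80280 and AT1G80290 (chr1:30187586-30187686): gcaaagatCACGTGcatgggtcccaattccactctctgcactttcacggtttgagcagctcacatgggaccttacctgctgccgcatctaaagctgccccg
MTO3 (AT3G17390) and AT3G17400 (chr3:5954353-5954453): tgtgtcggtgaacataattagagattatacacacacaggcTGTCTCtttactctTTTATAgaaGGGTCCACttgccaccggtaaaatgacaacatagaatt
AT5G03380 and AT5G03390 (chr5:834577-834677): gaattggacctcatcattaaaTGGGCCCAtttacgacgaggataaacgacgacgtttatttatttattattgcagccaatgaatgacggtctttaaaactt

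The site with the best mean rank of fold over the 4 libraries lay between AT4G38840 and *SAUR15*, both small auxin-up RNA genes, whose family promotes cell expansion. Its fold was 4.71 and 5.79 in the BRIP1 replicates and 5.18 and 5.03 in the BRIP2 replicates, so the values of the 2 proteins overlapped. The summit lay 265 bp from the one TSS and 233 bp from the other, in the middle of an interval of 498 bp. Beside it in rank stood the site between AT1G80280 and AT1G80290, with a G-box close to the summit, at 3.91 and 4.89 in BRIP1 and 5.15 and 4.62 in BRIP2. The site beside *FAH1*, a sphingolipid fatty acid hydroxylase gene, followed at 3.91 and 4.60 in BRIP1 and 4.90 and 4.65 in BRIP2. Its summit was 45 bp from the *FAH1* TSS and 1218 bp from that of AT2G34750, a gene of the RNA polymerase I machinery.

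The remaining sites of the best 12 lay beside genes of varied function. The site beside *GRF8*, which encodes a 14-3-3 protein, had folds of 4.08, 4.82, 4.64 and 4.52, given here and below in the order BRIP1 replicates 1 and 2, then BRIP2 replicates 1 and 2. For *MTO3*, an S-adenosylmethionine synthetase gene, the folds were 4.19, 4.34, 5.41 and 4.13. Between AT3G54210, a ribosomal protein L17 gene, and *SCARECROW* (*SCR*), the GRAS transcription factor of root radial patterning, they were 4.28, 4.67, 4.28 and 3.95. Neither BRIP2 value at the *SCR* site was above the higher BRIP1 value, and at *GRF8* and *MTO3* the values of the proteins overlapped.

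At *PSY1*, whose product is a sulfated peptide that promotes cell expansion, the order was the other way, with folds of 3.57 and 3.51 for BRIP1 and 6.09 and 4.70 for BRIP2. Both BRIP2 values lay above both BRIP1 values, as at most shared sites, and the BRIP2 replicates differed more from each other than the BRIP1 replicates did. Of the other 5 of the best 12, the site between AT5G14110 and the major facilitator gene AT5G14120 had folds of 4.06, 4.2, 5.20 and 4.26. Between *TPR4*, which encodes a tetratricopeptide repeat protein, and AT1G04540 they were 3.57, 4.22, 4.66 and 4.33. At both sites the lower BRIP2 value exceeded the higher BRIP1 value, as it did at 60.3% of all shared sites.

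At AT1G16360 and *OCT6*, an organic cation and carnitine transporter gene, the proteins were level, with folds of 4.0, 4.25, 4.33 and 3.92. Between AT5G03380, of a heavy metal transport family, and AT5G03390 the folds were 3.36, 3.65, 4.43 and 4.54, with a site II element in the window printed above and TSSs 310 bp apart. AT1G22810 and AT1G22830 complete the set and are described with the transcription factors. Over the 12 sites the folds ran from 3.32 to 6.09 in single libraries.

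Across all 142 sites the median fold was 2.49 and 2.59 in BRIP1 and 3.19 and 3.05 in BRIP2. The lowest to highest folds were 1.66 to 4.71, 1.5 to 5.79, 1.99 to 6.09 and 2.02 to 5.03. The BRIP2 medians were the higher ones, while the ranges of all 4 libraries overlapped broadly. Median pileups were 81.0, 109, 101.5 and 74.5 fragments, for which counting alone gives errors of 11.1%, 9.58%, 9.93% and 11.6%. Sites were ranked in a similar order by the libraries. Spearman's rho over the 142 sites was 0.830 between the BRIP1 replicates, 0.788 between the BRIP2 replicates and 0.682 to 0.764 between the proteins, as a description over sites that share the libraries.

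**Figure D1:**
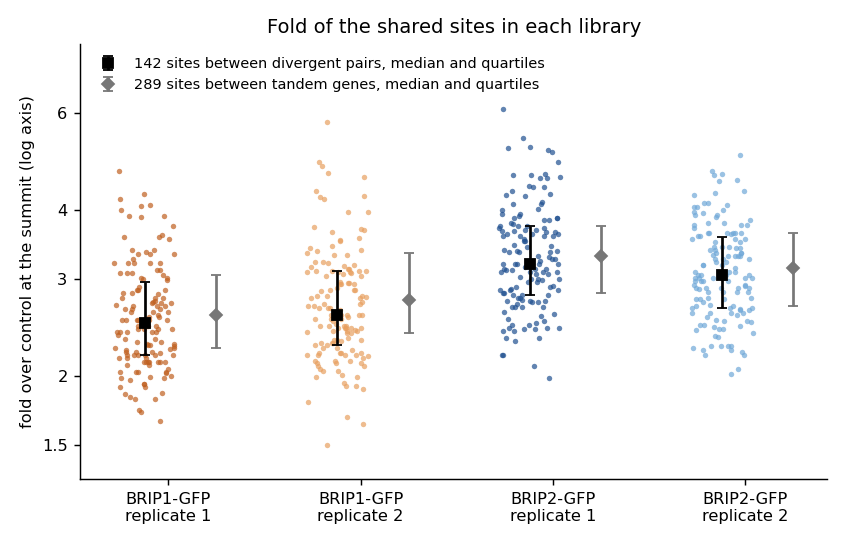
Fold over control at the summit (log axis) in the 4 libraries. Points are the 142 sites between divergent pairs, black squares and bars their median and quartiles, and grey diamonds and bars those of 289 shared sites between tandem genes; in every library the grey median lies slightly above the black one (2.59 against 2.49 in BRIP1 replicate 1).

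Folds between divergent genes were set beside those at shared sites upstream of a single gene, and their medians were slightly lower in all 4 libraries. The comparison class was the 289 shared sites in intervals of at most 1500 bp between genes on the same strand (tandem genes), with median folds of 2.59, 2.75, 3.31 and 3.14. The divergent sites were lower by 0.05, 0.09, 0.05 and 0.04 on the log2 scale in the 4 libraries, a mean difference of -0.06 ± 0.02 (SD, n = 4 libraries). All 4 libraries had the same sign, and the exact sign-flip permutation test over libraries gave p = 0.13 (two-sided), the smallest it can give, so this design cannot reach the usual threshold. The difference was -0.10 with intervals of over 900 bp only (exact p = 0.13), a choice made after the data were seen. It was smaller with stricter peaks (-log10 q of 10 or more), at -0.01 (exact p = 0.875), and with intervals up to 1000 bp, at -0.02 (exact p = 0.5).

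Peaks between divergent genes had median widths of 463.5, 603, 831 and 678.5 bp. Against the tandem sites they were narrower by 40.5 and 22.0 bp in the BRIP1 libraries and wider by 37.0 and 40.5 bp in the BRIP2 libraries. The mean difference of 3.75 ± 41.1 bp (SD, n = 4 libraries) had an exact p of 1, and its sign turned with 50% reciprocal overlap of the peaks (-12.75 bp) and without BRIP2 replicate 1 or 2 (-1.0 and -2.0 bp). The median widths followed the number of peaks in the lists, from 3637 in BRIP1 replicate 1 to 7877 in BRIP2 replicate 1. A peak reached over both start sites of its pair at 9 and 15 sites in BRIP1 and at 43 and 30 sites in BRIP2. It reached over neither at 42, 28, 13 and 23 sites.

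The rule's limit of 1500 bp did not mark a step in count. From 1400 to 1500 bp there were 11 sites, and from 1500 to 1600 bp, just outside it, there were 12 head-to-head shared sites. Their median folds were 2.24, 2.44, 2.74 and 2.76 inside the limit and 2.77, 2.95, 3.39 and 3.39 outside it. A further count of head-to-head shared sites with TSSs over 1500 bp apart, these 12 included, came to 748.

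Summits were spread along the intervals, at a median of 0.257, 0.266, 0.229 and 0.241 of the interval's length from the nearer TSS in BRIP1 replicates 1 and 2 and BRIP2 replicates 1 and 2. In BRIP2 replicate 1, whose summit the rule places in the interval, the median distance to the nearer TSS was 181 bp (quartiles 91.0 and 317 bp), with 77 summits nearer to the left gene and 65 nearer to the right gene. The libraries that did not set the interval gave 199, 203.5 and 200 bp (BRIP1 replicates 1 and 2 and BRIP2 replicate 2). Their summits fell inside the same interval at 120, 126 and 127 of the 142 sites. All 4 summits were inside at 106 sites (74.6%) and nearest to the same TSS at 110 sites. The range of the 4 summits had a median of 110 bp. It was within 100 bp at 66 sites (46.5%), compared with 52.9% of the tandem sites, and over 500 bp at 13 sites.

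**Figure D2:**
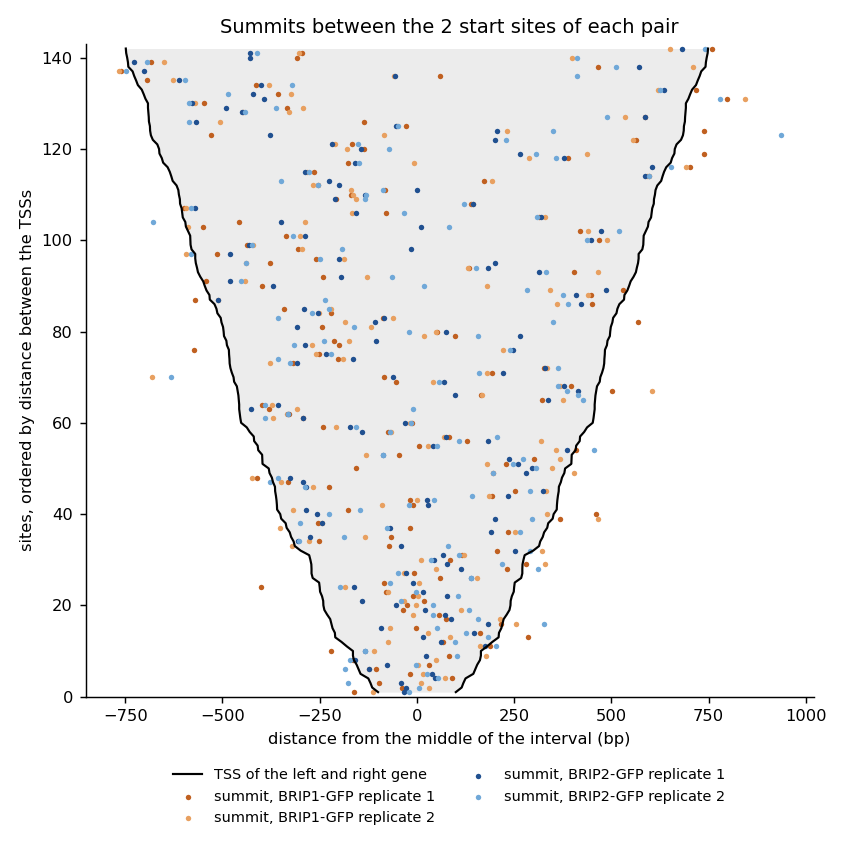
Summit of each library (coloured points) at the 142 sites, as distance in bp from the middle of the interval; sites are ordered by the distance between their TSSs, which are drawn as black lines around the grey interval. At 106 sites all 4 summits lie inside the lines.

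Fold varied little with the distance between the genes. Spearman's rho of fold with TSS distance was -0.02 to -0.11 over the 142 sites in the 4 libraries. In BRIP2 replicate 1 the median fold was 3.29 for 32 intervals of up to 600 bp, 3.23 for 49 of over 600 and up to 1000 bp and 3.13 for 61 longer ones. In BRIP1 replicate 1 the same bins gave 2.36, 2.56 and 2.43. The summit stood further from the nearer TSS in the longer intervals, at a median of 127.5 bp, 161 bp and 284 bp. The shortest interval, of 200 bp between AT2G47710 and the glutathione S-transferase gene *GSTF8*, had folds of 2.12, 2.09, 2.41 and 2.02. The longest, of 1497 bp between *UMAMIT25*, of a transporter family, and AT1G09390, had 2.24, 2.45, 2.62 and 2.66.

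How often divergent intervals held a shared site was set beside the other orientations. A shared summit lay in 142 of 3236 head-to-head intervals of up to 1500 bp, or 4.39% (95% Wilson interval 3.73 to 5.15%), in 289 of 9189 tandem intervals (3.15%) and in 63 of 3006 convergent ones (2.1%). Head-to-head intervals were also longer, with medians of 547, 425 and 253 bp in that order. Per megabase of interval the counts were 71.7, 59.8 and 52.0 sites. The order of the orientations differed between classes of length. Up to 300 bp the shares were 0.559% of head-to-head, 0.545% of tandem and 0.426% of convergent intervals, and from 1201 to 1500 bp they were 8.82%, 7.26% and 9.04%, all with overlapping Wilson intervals. Over 300 and up to 600 bp the shares were 4.02%, 3.55% and 2.12%, and from 601 to 900 bp 4.60%, 4.97% and 2.56%. From 901 to 1200 bp head-to-head intervals stood at 9.04% (6.82 to 11.9%), tandem ones at 5.38% (4.22 to 6.82%) and convergent ones at 7.17%, so that head-to-head and tandem shares were further apart there than over all lengths. These intervals cover counting error only, and no test was made.

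**Figure D3:**
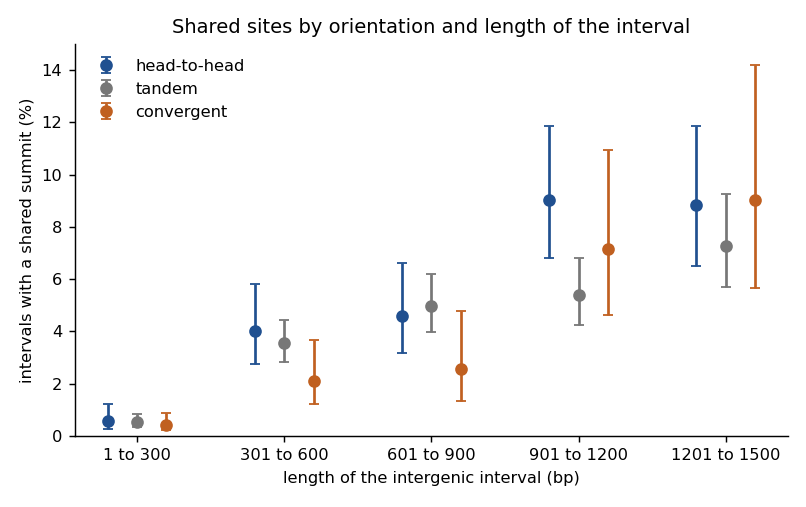
Share of intergenic intervals (%) that held a shared summit, by orientation and length of the interval in bp; points are shares and bars 95% Wilson intervals. Head-to-head shares go from 0.559% in the shortest class to 9.04% from 901 to 1200 bp and 8.82% in the longest.

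Divergent intervals took a larger part of the BRIP2 lists than of the BRIP1 lists, as did tandem intervals and the first 500 bp downstream of a TSS. Of all peaks in a list, 3.88% and 4.62% had their summit in such an interval in BRIP1, and 6.04% and 5.93% in BRIP2. The means were 4.25 ± 0.528% and 5.99 ± 0.0785% (SD, n = 2 each), and the groups did not overlap, although with 2 against 2 libraries an exact permutation test cannot go below p = 0.333. The lists differ in length (3637, 5343, 7877 and 6288 peaks), and the share was larger among the weaker peaks of a list. In BRIP2 replicate 1 it went from 4.47% among the 25% of peaks with the highest fold to 7.21% among the 25% with the lowest, and in BRIP1 replicate 1 from 2.97% to 5.17%. With as many of the best peaks of every list as the shortest held, a choice made after the data were seen, the shares were 3.88%, 4.21%, 5.11% and 5.33%, still apart but by 1.18 rather than 1.74 percentage points. The split was not particular to divergent intervals. Over the whole lists, tandem intervals held 9.18% and 9.99% of the peaks in BRIP1 and 11.6% and 10.6% in BRIP2. Up to 500 bp downstream of a TSS the shares were 12.6% and 13.1% in BRIP1 and 16.7% and 15.7% in BRIP2.

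Many divergent sites of BRIP2 were not shared. Of 476 BRIP2 replicate 1 peaks in divergent intervals, 338 (71.0%) overlapped a BRIP2 replicate 2 peak, against 69.6% of all 7877 peaks of that list. A peak of either BRIP1 list was overlapped by 244 (51.3%), against 62.5% of all. The 142 shared ones were 29.8% (Wilson interval 25.9 to 34.1%), against 31.6% of peaks in tandem intervals, 26.4% of those up to 500 bp downstream of a TSS and 43.3% of all others. A further 109 of the 476 were in both BRIP2 lists and in neither BRIP1 list. The same held for 1166 of all 7877 peaks, among them 158 of 915 in tandem intervals and 258 of 1316 downstream. Since the BRIP1 lists are shorter, a site missing there was not shown to be unbound. The count of shared sites rested on the shortest list, that of BRIP1 replicate 1: without it, 221 sites met the rule.

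BRIP2 and BRIP1 were then compared at each shared site by limma on log2 fold, with every library centred on its median over the 3015 shared sites. None of the 142 divergent sites was called at an adjusted p under 0.05, and neither was any of the 3015 (0%; lowest Benjamini-Hochberg adjusted p = 0.0583). At an unadjusted p under 0.05, 17 divergent sites were higher in BRIP2 and 6 were lower, beside 212 of 3015 (7.03%) and 311 of 3015 (10.3%) over all shared sites. With the replicate number as a block, 0 of 3015 sites (0%) were called, and none of the divergent sites was called when 1 library was left out, although over all sites leaving out BRIP1 replicate 1 or 2 gave 18 and 23 calls and leaving out BRIP2 replicate 1 or 2 gave 91 and 55. The median difference, BRIP2 minus BRIP1, was 0.05 on the log2 scale over the divergent sites and -0.01 over all sites.

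Before centring, the mean log2 fold was higher in BRIP2 at 134 of the 142 sites and at 2587 of all 3015. The median difference was then 0.28 at the divergent sites and 0.22 at all shared sites, and limma called 48 of the 142 sites, all higher in BRIP2, beside 688 of 3015 (22.8%) higher and 699 (23.2%) in either direction. Enrichment of a whole library depends on the immunoprecipitation and the control as well as on the protein, and these cannot be told apart here. After centring, both BRIP2 values lay above both BRIP1 values at 46 of 142 sites (all shared sites, 22.1%) and below both at 28 (all shared sites, 26.2%).

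**Figure D4:**
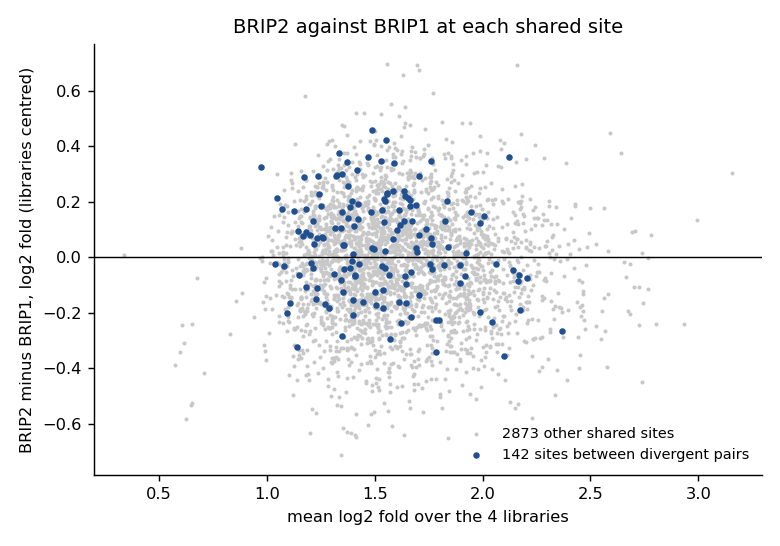
Difference of log2 fold, BRIP2 minus BRIP1, with libraries centred, against the mean log2 fold of the 4 libraries; blue points are the 142 sites between divergent pairs and grey points the 2873 other shared sites. Blue points lie on both sides of 0, at a median of 0.05, and none passed the adjusted threshold.

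The divergent site with the lowest p, chosen after its values were seen, lay between AT1G20100 and AT1G20110, a zinc finger gene. Its folds were 2.15, 2.25, 3.62 and 3.51, and its centred difference was 0.46 ± 0.12 (log2, SE, limma adjusted p = 0.0923). *APX1*, the cytosolic ascorbate peroxidase gene that removes hydrogen peroxide, came next with 2.15, 2.54, 3.58 and 3.80. Of the strong sites named above, *PSY1* had a centred difference of 0.36 ± 0.13 (SE, limma adjusted p = 0.183) and the *SCR* site of -0.36 ± 0.12 (SE, limma adjusted p = 0.157). The site between the SAUR genes had -0.27 ± 0.12 (SE, limma adjusted p = 0.282).

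The DNA under the divergent sites was richer in G and C than that of divergent promoters without a peak. The median GC content of the window that reached 100 bp to each side of the summit was 36.3% at the 142 sites and 36.3% at the tandem sites. In head-to-head intervals with no peak in any list, 1994 windows were taken at 181 bp from each TSS, and their median was 29.4%. The 181 bp is the median distance of the divergent summits from the nearer TSS. Only intervals at least as long as the lower quartile of the divergent ones (658 bp) were used. Windows from both ends of an interval were counted as independent, so their SE and Wilson intervals may be too narrow. The A+T content at the centre was 63.1 ± 0.697% at the divergent sites, 62.8 ± 0.490% at the tandem sites and 71.2 ± 0.197% (mean and SE over windows) in the intervals without a peak. It rose to 67.3% and 66.9% at 250 bp on each side of the divergent summits. At 500 bp from them it was 62.6% and 63.3%, about as low as at the centre. In the intervals without a peak it fell to 66.1% and 66.7% at 250 bp. The windows without a peak were all centred 181 bp from a TSS, so at 250 bp each profile had passed that TSS on its side. The divergent summits lay at varied distances from the nearer TSS (quartiles 91.0 and 317 bp). The shapes of these profiles were therefore not compared like for like. Over the 142 sites, Spearman's rho of fold with GC content was 0.175 to 0.242 in the 4 libraries, and the part of GC content in the recovery of reads was not tested.

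**Figure D5:**
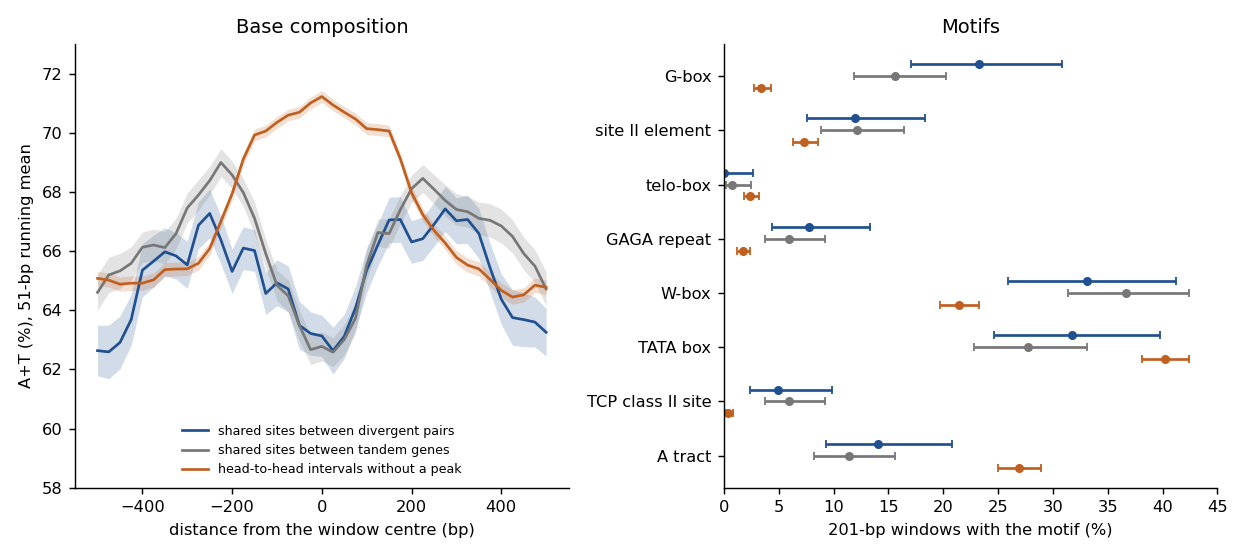
Left, A+T content (%) in 51-bp windows by distance in bp from the summit or window centre, with the mean and its SE as a band; right, share of windows of 100 bp on each side (%) with each motif and its 95% Wilson interval. At both kinds of bound site A+T is lower at the centre than at 250 bp to each side. Between divergent pairs A+T is 63.1% at the centre, where the intervals without a peak are at 71.2%. At 500 bp from the divergent summits it is about as low again (62.6% and 63.3%). The windows without a peak are all centred 181 bp from a TSS, while the summits lie at varied distances.

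The G-box, the core site of bHLH and bZIP transcription factors, was the motif with the largest ratio of frequencies among those found in over 10% of the sites. It lay in 33 of the 142 windows (23.2%, Wilson interval 17.1 to 30.8%). The share was 15.6% at tandem sites, 17.9% at shared sites up to 500 bp downstream of a TSS and 20.1% at the remaining 2237 shared sites. It was 3.41% of the windows in intervals without a peak and 4.19% of all protein-coding promoters at that distance. The Wilson intervals of the divergent and tandem sites overlapped. G-boxes were most frequent near the summit, with 22 lying within 50 bp of it, 20 at 50 to 100 bp, 12 at 100 to 150 bp and 6 at 250 to 300 bp. Sites with a G-box had median folds of 2.40, 2.49, 3.36 and 3.22 and those without 2.52, 2.63, 3.19 and 3.01, so they were lower in both BRIP1 libraries and higher in both BRIP2 libraries. These medians have no test.

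Other motifs were compared with the same windows of intervals without a peak, and then with the tandem sites. The W-box, bound by WRKY factors, was in 33.1% of divergent windows and 21.4% of those without a peak. TCP class II sites, in 7 windows, were in 4.93% and 0.401%, a larger ratio than that of the G-box, and the GAGA repeat (GAGAGAGA) in 7.75% and 1.71%. The site II element was in 12% and 7.32%, with overlapping Wilson intervals. It was in 16.9% (15.5 to 18.5%) of windows at the midpoint of 2450 intervals without a peak. These 2450 also include shorter intervals, so its direction turned with the place of the window or the length of the interval. The telo-box (AAACCCTA), which is frequent in promoters of ribosomal protein genes, was in 0 of 142 windows. That allows a share of up to 2.11% by 3 counts and 2.63% by the Wilson interval. The 2.41% of windows without a peak lay between these limits, so a difference from it could not be decided. At the midpoints, which include shorter intervals, the telo-box was in 5.43%, above both limits. An A tract (AAAAAAAA) was in 14.1% of divergent windows and 26.9% of those without a peak. At tandem sites the shares were 36.7% for the W-box, 5.88% for the TCP class II site and 5.88% for the GAGA repeat. The site II element was in 12.1% of tandem windows and the A tract in 11.4%. Each lay inside the Wilson interval of the divergent share, so none of these shares set divergent sites apart from tandem ones. The GAGA repeat was in 25.9% of windows at shared sites downstream of a TSS. Matches of a pair of motifs overlapped at few sites, most often the TCP class II site and the site II element, at 3 sites. The site II share moved with the window, from 5.63% with 50 bp on each side to 21.1% with 150 bp, and that of the G-box was 13.4% with 50 bp.

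Gene classes were read from RefSeq product names over the 284 genes of the pairs. Transcription factor genes made up 14 of them (4.93%), compared with 3.01% of the 6472 genes in all head-to-head pairs of that spacing and 5.08% of all 27444 protein-coding genes. Kinase or phosphatase genes came to 24 (8.45%, against 5.64% of pair genes), transporters to 15 (5.28% against 2.98%) and hormone genes to 5 (1.76% against 0.603%). Genes of RNA metabolism or translation were 5 (1.76%) against 4.60% of pair genes, and ribosomal protein genes 1 (0.352%) against 1.87%. These directions were not particular to divergent sites. At tandem sites only 1 gene was counted per site, against both genes of a divergent pair. The sizes of these shares are therefore not like for like. Of the 289 genes counted at tandem sites, 8.65% were transcription factor, 11.8% kinase or phosphatase, 4.15% transporter and 1.38% hormone genes. RNA or translation genes made up 1.73% of them and ribosomal protein genes 0.346%. Of all protein-coding genes, 6.14% were kinase or phosphatase, 3.31% transporter and 1.13% hormone genes. Where 1 gene of the pair was of the class, the summit was nearer to that gene at 10 of 14 transcription factor sites. The counts were 8 of 20 for kinase or phosphatase, 7 of 15 for transporter, 6 of 16 for ubiquitin system and 0 of 5 for RNA or translation sites. For genes without a named product they were 13 of 33. The smallest classes gave 2 of 3 (hormone), 2 of 2 (chaperone), 1 of 2 (pentatricopeptide) and 1 of 1 (ribosomal protein and photosynthesis, each). These are counts without a test, and product names miss factors such as *GBF2*, *BEE2*, *COL3* and *RD26*, all present among the pairs and named after their values were seen.

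Among the transcription factor sites, that beside *NF-YB2*, a subunit of the CCAAT-binding NF-Y complex, had folds of 3.88, 3.96, 4.57 and 3.55. At *PCL1*, also known as *LUX*, of the evening complex of the circadian clock, they were 3.11, 3.42, 3.79 and 4.08, with the summit 383 bp upstream of its TSS and 99 bp from that of AT3G46630. The AP2-type gene AT1G22810 shared a site with AT1G22830 at 3.32, 3.72, 5.10 and 4.13. At *NF-YB2* the proteins overlapped, and at the other 2 both BRIP2 folds exceeded both BRIP1 folds as deposited, as at 60.3% of all shared sites.

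*SPL13A* and *SPL13B*, squamosa promoter-binding genes of vegetative phase change, each formed a divergent pair with a copy of *SAE1B*, which encodes a SUMO-activating enzyme subunit. The folds were 3.20, 3.97, 4.01 and 4.0 at *SPL13A* and 3.32, 3.39, 4.57 and 4.29 at *SPL13B*. The intervals are copies of each other, with 627 of 627 aligned bases identical and 42 gap positions, and all 50-mers of both summit windows occur more than once in the genome. Reads of the pair cannot be told apart, and these sites may be counted as 1. They were the only sites of the 142 with any repeated 50-mer in the summit window, and the peaks beyond that window were not searched.

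Hormone genes stood at 4 sites. Apart from the SAUR pair, whose genes both counted, these included *BAK1*, the co-receptor kinase of brassinosteroid and immune receptors (3.20, 2.96, 3.78 and 3.71). Another was *IAA11*, an auxin-response repressor gene that faces the mitochondrial transporter gene *ABCB23* (2.37, 2.80, 3.13 and 3.05). The last was AT1G01840 (2.19, 2.44, 3.12 and 3.09), with the product name AP2-like ethylene-responsive transcription factor SNZ. It entered the hormone class, as well as the transcription factor class, by that name alone. Both BRIP2 folds were above both BRIP1 folds at these 3 sites as deposited, which was also so at 60.3% of all shared sites. The summit at *BAK1* was 94 bp from its TSS in BRIP2 replicate 1, but the 4 summits spread over 718 bp.

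In 6 pairs both genes carried the same product name, and the SAUR pair was 1 of them. A non-coding gene or pseudogene was annotated in 14 of the 142 intervals and lay at the summit in 3. Of these 14 intervals, 7 held a long non-coding RNA, 4 a tRNA and 0 a microRNA. Among the 14 were the interval beside *FAH1*, with a transcribed pseudogene, and those beside *NF-YB2* and AT1G01840, with a long non-coding RNA. Counting any annotated gene as a break between the pair left 127 sites.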

How the data were processed

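Peak lists of 4 of the 18 samples were used, and the other 14 were not analysed here. Groups follow the sample titles. The antibody labels of BRIP1-GFP in *brm-1* replicate 2 ("none") and of the BRIP2-GFP in *brm-1* input (GFP antibody) go against their titles. Bowtie, MACS2 (2.1.1) and deepTools stand in the processing notes of the submitters. Which input served as control for each list, and the alignment settings, are not given in the sources used here. Each library has its own peak list, made by the authors without pooling. The deposited lists give positions, the fold (a ratio of pileup to control at the summit), −log10 p and −log10 q values, and a score, which was not used. Read totals were not given. Pileup and control were therefore solved from the deposited fold and p, which gave whole pileups (within 0.05) for 99.8 to 99.9% of peaks and background controls of 31.5, 41.2, 29.7 and 23.2 fragments.

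Gene positions were those of RefSeq for TAIR10.1, on the same nuclear coordinates as TAIR10. Where several peaks of a list overlapped a site, the one of highest fold was used. Members, gene classes, motifs and tests were chosen with earlier results of these data known, and the patterns for gene classes were widened after product names were read. Named were the 12 sites of best mean rank of fold, the 5 best of at most 300 bp, up to 6 sites each with a transcription factor, hormone or ribosomal protein gene, and the shortest and longest intervals. Sites called between proteins would also have been named, and there were none.

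BRIP2 and BRIP1 were compared by limma (3.58.1, R 4.3.3) on log2 fold, centred, with Benjamini-Hochberg adjustment over 3015 sites. Classes of sites were compared by exact sign-flip permutation over 4 libraries. The replicate numbers, which the labels give only as names, were used as a block in an alternative. Other alternatives were stricter peaks, 50% reciprocal overlap, other TSS distances, other windows and leaving out each library. In Python 3.11.15 the overlap, interval and pileup functions were tested on simulated data. Of sites with a simulated log2 change of 1 between proteins, limma recovered 92.0% (3015 sites fitted), and of those with a change of 2, 99.0%. Smaller changes, such as the 0.46 of the divergent site with the lowest p, were not simulated, so their recovery is not known. P-values and Wilson intervals cover only the spread between these libraries and counting error.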

Additional observations from a re-analysis of the deposited data

How the results depend on the processing

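The count of 142 sites was 67 with stricter peaks (−log10 q at least 10), 81 with TSSs within 1000 bp and 214 within 2000 bp. It ranged from 140 to 221 with 1 library left out, 221 without BRIP1 replicate 1. The fold difference to tandem sites kept its sign under all alternatives (−0.04 to −0.05 log2 with 1 library left out). The width difference turned to −12.75 bp with 50% reciprocal overlap and ranged from −2.0 to 18.0 bp with 1 library left out. The median distance of the summit to the nearer TSS was 199, 203.5 and 200 bp with the summits of BRIP1 replicates 1 and 2 and BRIP2 replicate 2, and 229 bp with the stricter peaks. The share of head-to-head intervals with a shared site was 2.07% with the stricter peaks, 3.0% with 50% reciprocal overlap and 6.46% when any overlap of the peak counted. The G-box share was 13.4% with 50 bp on each side of the summit, and that of the site II element 5.63% with 50 bp and 21.1% with 150 bp. The share of peaks in divergent intervals differed by 1.18 percentage points between BRIP2 and BRIP1 with lists cut to the length of the shortest. In each case the cause was not tested, beyond the smaller or larger number of sites or bases that the alternative admits.

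For BRIP2 minus BRIP1, limma called 0 of 3015 sites, 0 with the replicate block, 0 with the crossed pairing of replicate numbers and 0 with the solved pileups, 7 with the stricter peaks, 699 without centring (48 of them divergent sites), and 18 to 91 with 1 library left out, where the lone sample is assumed to vary like the others. Samples with the same number did not deviate together (correlation 0.005 over 3015 sites), so the block pairs only numbers. Divergent sites called stayed at 0 in all of these except without centring. The counting error of a median pileup, 9.58 to 11.6%, limits the differences that can be seen at 1 site.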
